A study of Mus musculus with 6 samples.

Results

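The genes described here encode the subunits, activators and assembly factors of the proteasome, the protease complex that degrades proteins tagged with ubiquitin. They are the 45 of 19865 gene symbols in the count tables that begin with Psma, Psmb, Psmc, Psmd, Psme, Psmf or Psmg followed by a digit, leaving out the 3 immunoproteasome subunits Psmb8, Psmb9 and Psmb10. By role, 7 belong to the alpha ring and 7 to the beta ring of the core, 9 to the base, 8 to the lid, 5 to the activators with an inhibitor, and 7 to the assembly chaperones. The symbol rule also took in Psme2b, an intronless copy of Psme2, and Psmc3ip, which encodes a meiotic recombination protein and no proteasome subunit.

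The cells were primary lung fibroblasts from Col1a2-GFP Transgenic C57BL/6 mice, whose green reporter is driven by the Col1a2 promoter, carrying a retroviral control vector (control, 3 libraries) or the active form of Srebf1c, a transcription factor of lipid synthesis (trSrebf1, 3 libraries). Both vectors carried the surface marker hLNGFR. Cells of both groups were placed in the airways of C57BL/6 mice on day 5 after 2 mg/kg of bleomycin, which injures the lung, and doxycycline, which switches on the transgene, is recorded for both groups at day 7. Donor cells were sorted on day 10 as negative for CD45, CD31, EpCAM, CD146 and Ter119 and positive for reporter and marker, and 10000 cells per library were profiled by 3'SAGE-seq, which counts short tags near the 3' ends of polyA RNA. The ages of the mice and whether the libraries of a group came from separate mice are not stated in the sources used here, so p-values rest on the spread between these libraries, possibly a technical one.

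The proteasome is built from a barrel-shaped core, in which alpha rings gate the entry and beta rings hold the protease sites, and a regulatory particle that caps it. The base of that particle holds a ring of ATPases that unfold substrates, and the lid removes ubiquitin. In mammalian cells many proteasome genes are raised together by the transcription factor NRF1, encoded by Nfe2l1, when proteasome activity falls short.

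Library totals ran from 3675146 to 4688196 counts. Levels are given as CPM, the tags of a gene scaled to a common library size, with library sizes adjusted by TMM factors. Tags of Srebf1, the check of the labels, went from 7.11 ± 1.72 CPM (control) to 28.2 ± 3.30 (trSrebf1; SD, n = 3 each; edgeR adjusted p = 2.88e-06); whether they come from the transgene or the endogenous gene cannot be told apart. Ctsd alone took 0.860% to 0.953% of control and 6.53% to 6.81% of trSrebf1 counts. The 7 fibroblast markers summed to 28710 to 33690 CPM in control and 20230 to 23140 in trSrebf1. Of them 6 fell, beside 13.0% of all tested genes, and Col1a1 did not (log2 fold change 0.12). Col1a2, whose promoter drives the reporter used for sorting, was among the fallen (log2 fold change -0.47, edgeR adjusted p = 0.00157). The part of these falls in the results was not tested. Summed markers of macrophages (5 of 8 with a row) lay between 0.472 and 2.88 CPM in all 6 libraries, those of lymphocytes (2 of 8) between 0 and 1.37, those of endothelium (6 of 8) between 0.860 and 2.06 and those of epithelium (8 of 8) between 7.31 and 21.8. CD31 (Pecam1) reached 0.236 CPM in 1 library and was at 0 in the others.

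Genes of the core, the base and the lid rose in trSrebf1 fibroblasts. So did 1 activator, Psme1, whose call was lost in 8 of 15 alternative settings. Of the 4 tested assembly chaperones 0 rose, too few genes to set apart from all tested genes. Of 41 members that passed the filter on low counts, 15 rose and 0 fell, where 17.2% of all 10194 tested genes rose and 13.0% fell (edgeR quasi-likelihood test, adjusted p under 0.05 by the Benjamini-Hochberg method over all tested genes). At an unadjusted p under 0.05, 1 member, Psma5, was lower. The rises ran from 1.38-fold (Psmc3) to 2.24-fold (Psma7). In all 15 risen members, which were picked by a test of these same libraries, the 3 trSrebf1 libraries lay above the 3 control libraries. Over all tested members this held for 19, against 23.1% of all tested genes. In 0 of the 41 tested members did all trSrebf1 libraries lie below all control libraries, against 20.2% of all tested genes. Psmc3ip, which was not tested, had 6 tags in all control and 0 in all trSrebf1 libraries. The log2 fold change was above 0 in 32 of the 41, against 49.3% of all tested genes. The median log2 fold change of the 41 members was 0.38, beside -0.01 for all tested genes. In bulk samples, a change in the RNA of each cell and a change in the mix of cells cannot be told apart.

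Of the 15 risen members, 7 kept their call in all 15 alternative settings run: Psma1 and Psma7 of the core, Psmd1 and Psmd4 of the base, and Psmd7, Psmd8 and Psmd11 of the lid. The other 8 lost it in some settings, and the number of risen members was 8 with total-count scaling, 9 with the DESeq2 Wald test, 9 without control library 3, 8 without trSrebf1 library 1 and 9 without trSrebf1 library 3. The number of lower members was 2 without control library 3 (Psma5 and Psmb5) and 1 without trSrebf1 library 1 or with upper-quartile factors (Psma5 in both). The shares of all tested genes that rose or fell in each setting are not given here. Whether members lost or gained calls more than other genes did therefore cannot be told.

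**Figure D1:**
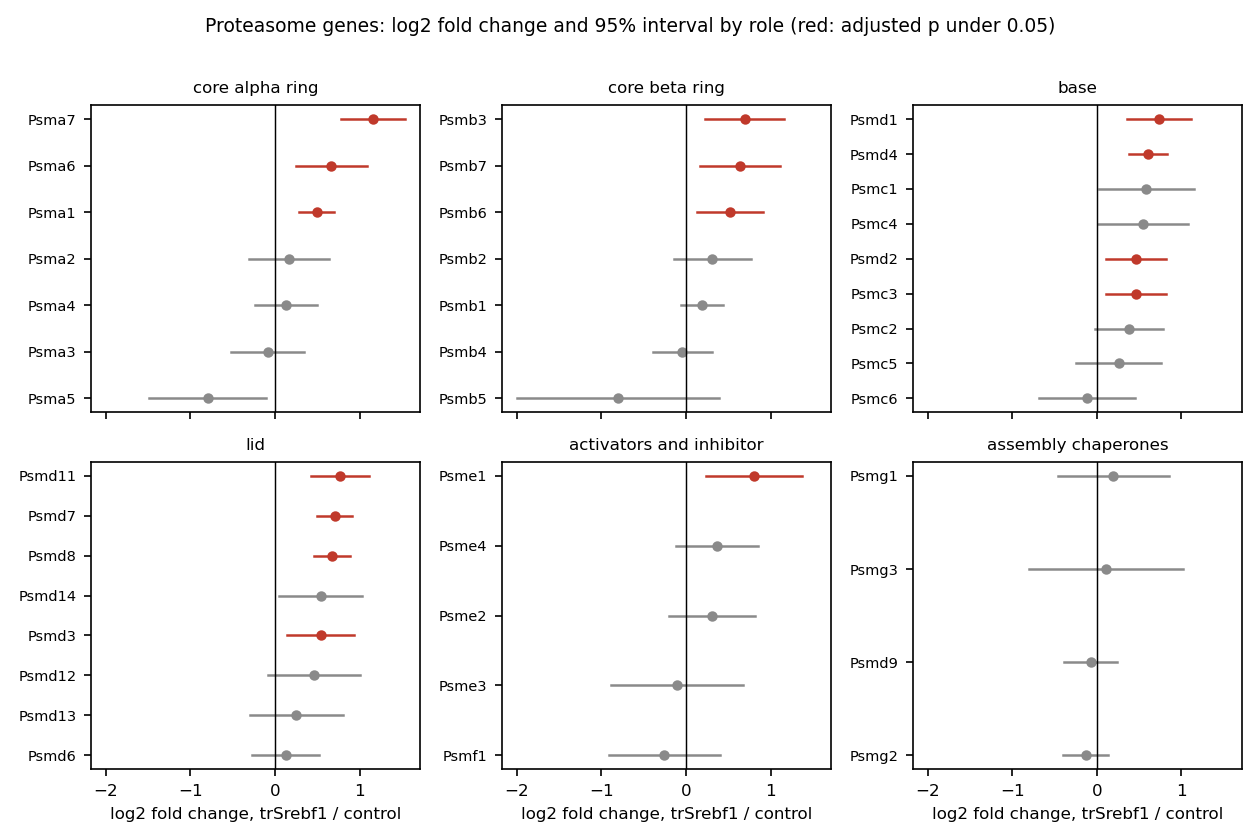
Log2 fold change of trSrebf1 over control (x axis) for each tested proteasome gene, in 1 panel per role, with its 95% interval from the edgeR fit as a line. Red genes passed an adjusted p of 0.05, all of them to the right of 0, and the 4 tested assembly chaperones hold none.

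The estimates were narrower for members with more tags. Of the 19 tested members with a mean of 20 CPM or more, 12 rose and 0 fell, beside 25.3% and 18.6% of all 3960 tested genes at that level, and the standard error of their log2 fold change was 0.10 to 0.20. Of the 22 under 20 CPM, 3 rose and 0 fell, beside 12.1% and 9.46% of 6234 genes, with standard errors of 0.20 to 0.55. Of the 26 tested members without a call, 17 had a log2 fold change above 0, and for 16 the 95% interval reached 0.5 or more, so a rise of the size fitted for Psma1 lies within those intervals. Mean levels ran from 0.252 CPM (Psmc3ip) to 3178 CPM (Psmd8), and Psmd8 alone gave 51.6% to 57.9% of all member counts in each library. How well a tag is captured differs between genes, and these levels are not read as ratios of subunits.

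**Figure D2:**
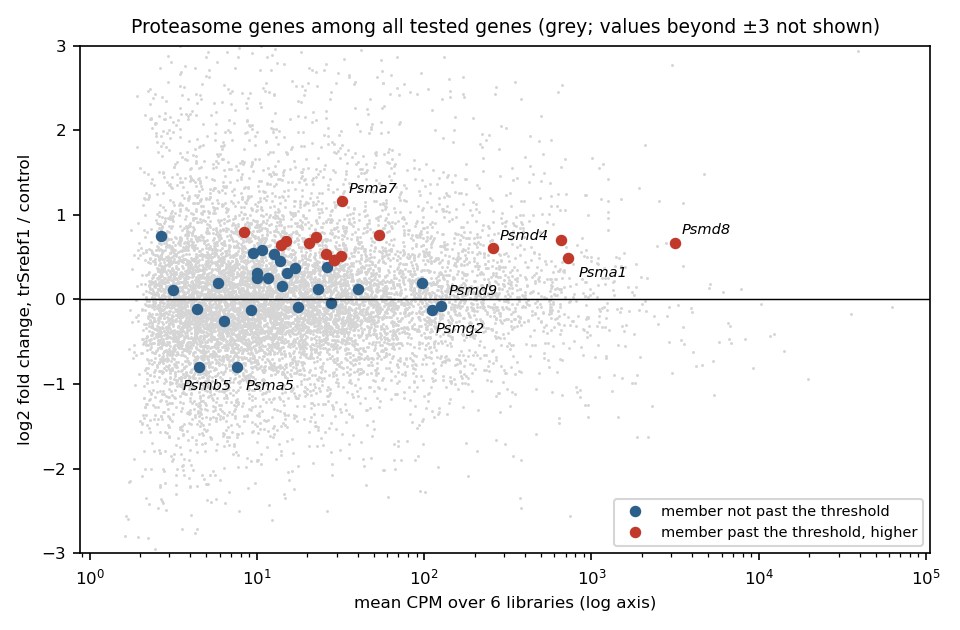
Mean level over the 6 libraries (x axis, CPM, log scale) against the log2 fold change of trSrebf1 over control (y axis) for all tested genes in grey, members past the threshold in red and other members in blue. Psmd8, at 3178 CPM, and Psma7, at the highest fold change of 1.16, are among the red points, and most of the blue points lie under 20 CPM.

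Promoter windows of 300 bases (250 before the start site and 50 after, RefSeq on GRCm38.p6) were given for 38 of the 45 members, and not for Psmb1, Psmb2, Psmb7, Psmc3, Psmd3, Psmd7 and Psmg2. Since 15 of the 41 tested members rose and 0 fell, the windows were searched on both strands for 3 motifs. The antioxidant response element, TGANNNNGC, which NRF1 and NRF2 bind, was in 21 of 38 members (55.3%), beside 45.0% of all 27025 genes with a window, 48.1% of the 7446 tested genes among them and 41.3% of all windows. It was in 6 of 11 risen members with a window and in 12 of 23 tested members without a call. Its stricter form TGACNNNGC, whose matches are also matches of the first, was in 6 of 38 members (15.8%), 14.0% of all genes and 17.1% of tested genes, and in 1 of 11 risen and 5 of 23 other tested members. The sterol regulatory element that SREBP factors bind, TCACNCCAC, was in 0 of 38 members, 1.44% of all genes and 1.49% of tested genes. The CCAAT box, CCAAT, was in 13 of 38 members (34.2%), 41.1% of all genes and 42.2% of tested genes. It was in 5 of 11 risen and 6 of 23 other tested members, and no test of that difference was made. These matches are letters in a window and not sites of binding.

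The 250 bases before the start site are printed for 4 risen members, to show the member with the largest rise, the members with the most tags in the alpha ring and the base, and the risen member with the strict element. Capitals mark the antioxidant response element and the CCAAT box. Psma7 lies at chr2:180042465-180042714 on the minus strand, Psma1 at chr7:114276117-114276366 on the minus strand, Psmd4 at chr3:95042615-95042864 on the minus strand and Psmb6 at chr11:70525107-70525356 on the plus strand.
Psma7: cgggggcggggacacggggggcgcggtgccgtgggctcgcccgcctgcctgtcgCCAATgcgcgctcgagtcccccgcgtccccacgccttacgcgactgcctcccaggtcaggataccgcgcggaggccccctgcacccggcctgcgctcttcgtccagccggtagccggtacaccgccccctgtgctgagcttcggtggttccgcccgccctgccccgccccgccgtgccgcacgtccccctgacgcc
Psma1: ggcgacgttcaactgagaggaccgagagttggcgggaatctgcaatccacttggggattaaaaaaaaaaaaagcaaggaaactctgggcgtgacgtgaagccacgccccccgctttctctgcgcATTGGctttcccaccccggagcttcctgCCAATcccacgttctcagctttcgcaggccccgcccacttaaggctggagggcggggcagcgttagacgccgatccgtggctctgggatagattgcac
Psmd4: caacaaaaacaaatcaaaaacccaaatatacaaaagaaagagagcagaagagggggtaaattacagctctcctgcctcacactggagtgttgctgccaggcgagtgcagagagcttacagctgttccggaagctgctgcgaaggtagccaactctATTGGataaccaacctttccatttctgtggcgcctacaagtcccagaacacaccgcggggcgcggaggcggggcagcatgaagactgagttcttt
Psmb6: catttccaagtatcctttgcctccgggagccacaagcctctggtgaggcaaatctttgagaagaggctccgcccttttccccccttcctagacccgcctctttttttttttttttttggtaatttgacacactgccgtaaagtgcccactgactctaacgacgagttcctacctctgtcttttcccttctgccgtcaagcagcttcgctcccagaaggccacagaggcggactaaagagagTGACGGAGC
The Psmb6 stretch ends in the strict element, which begins 9 bases before the start site. Psma1 holds 2 CCAAT boxes, and Psma7 and Psmd4 hold 1 each, with no antioxidant response element in the printed stretch.

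In the alpha ring, 3 of 7 members rose and 0 fell, beside 17.2% and 13.0% of all tested genes. Psma7 (chromosome 2, 180036374 to 180042433, minus strand, GRCm38) had the largest rise of all members, and a CCAAT box in the printed promoter stretch. It stood at 21.2, 18.6 and 20.3 CPM in control libraries 1 to 3 and at 46.7, 35.5 and 52.1 in trSrebf1 libraries 1 to 3, a difference of 1.16 on the log2 scale (SE 0.18, adjusted p = 7.33e-05). The lowest trSrebf1 library lay well above the highest control library. Psma1 (chromosome 7, 114264606 to 114276118, minus strand), the alpha subunit with the most tags, stood at 614, 604 and 585 CPM in control and 882, 850 and 803 in trSrebf1, a difference of 0.49 on the log2 scale (SE 0.10, adjusted p = 7.94e-04). Its 3 control libraries lay close together, and the trSrebf1 libraries did not overlap them.

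Psma6 rose from 15.8 ± 2.63 to 25.1 ± 3.05 CPM (SD, n = 3 each, adjusted p = 0.0159), a call that was lost without control library 2 (adjusted p = 0.0841), trSrebf1 library 1 (0.0506) or trSrebf1 library 2 (0.0577), and over all settings its adjusted p spanned 0.0108 to 0.0841. Psma2, Psma3 and Psma4 had log2 fold changes of 0.16, -0.09 and 0.13, and their groups overlapped. Psma5 went the other way without passing the threshold. It stood at 11.01, 11.4 and 6.84 CPM in control and 7.74, 3.30 and 5.48 in trSrebf1, a difference of -0.80 on the log2 scale (95% interval -1.49 to -0.10, adjusted p = 0.0783). Control library 3 lay within the trSrebf1 range. Psma5 passed once control library 3 (adjusted p = 0.0360) or trSrebf1 library 1 (0.0371) was left out and with upper-quartile factors (0.0456), and over all settings its adjusted p spanned 0.0360 to 0.252. The 3' end of Psma5 matches 2 processed pseudogenes at 95% identity or more, so its value is uncertain.

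The beta ring had 3 risen members of 7 and 0 that fell, beside 17.2% and 13.0% of all tested genes. Of its 3 protease subunits, Psmb6 and Psmb7 rose and Psmb5 did not pass the threshold. Psmb6, the caspase-like subunit, whose printed promoter stretch ends in the strict element, stood at 29.6, 29.7 and 19.8 CPM in control and 42.8, 34.0 and 36.1 in trSrebf1, a difference of 0.52 on the log2 scale (SE 0.18, adjusted p = 0.0423). Psmb7, the trypsin-like subunit, stood at 9.18, 12.4 and 11.3 CPM in control and 17.9, 14.7 and 18.7 in trSrebf1, a difference of 0.64 on the log2 scale (SE 0.22, adjusted p = 0.0379). Neither had overlapping groups, but both calls depended on single libraries. That of Psmb6 was lost without control library 3 (adjusted p = 0.234), trSrebf1 library 1 (0.166) or trSrebf1 library 3 (0.0631), with total counts, upper-quartile factors, DESeq2 or without Ctsd, and over all settings its adjusted p spanned 0.0259 to 0.234. That of Psmb7 was lost without control library 1 (0.113), control library 3 (0.0762), trSrebf1 library 1 (0.0975) or trSrebf1 library 3 (0.123), with total counts, upper-quartile factors and DESeq2 among its 8 losing settings, and over all settings its adjusted p spanned 0.0306 to 0.123. An exon of Psmb7 also overlaps 1 of Nek6 on the opposite strand, which fell from 13.8 to 5.04 CPM (adjusted p = 0.00257), and whether the counting used strand is not stated.

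Psmb5, the chymotrypsin-like subunit, was thinly counted, with 67 tags in all control and 42 in all trSrebf1 libraries. It stood at 4.72, 11.1 and 1.42 CPM in control and 3.01, 3.55 and 3.20 in trSrebf1 (adjusted p = 0.316). The control libraries spanned a wider range than those of trSrebf1, and the log2 fold change of -0.80 became 0.10 without control library 2 and -1.29 without control library 3, where it passed the threshold (adjusted p = 0.0258, in settings that spanned 0.0258 to 0.922). Its 3' end also matches 2 pseudogenes. Psmb3, a structural beta subunit, rose from 11.4 ± 2.23 to 18.5 ± 1.64 CPM (SD, n = 3 each, adjusted p = 0.0239), with 4 pseudogenes of near-identical 3' sequence, and lost its call without control library 1 (0.0890), trSrebf1 library 1 (0.0822) or trSrebf1 library 3 (0.0593) and with total counts (0.0521), and over all settings its adjusted p spanned 0.0222 to 0.0890. Psmb1, the beta subunit with the most tags, stood at 95.7, 91.9 and 85.2 CPM in control and 104, 103 and 104 in trSrebf1. Its groups did not overlap, but the log2 fold change of 0.19 (95% interval -0.05 to 0.44) did not pass the threshold in any setting. That interval lies below the fitted changes of Psmb3, Psmb6 and Psmb7, but overlaps their intervals, such as that of Psmb6 (0.13 to 0.91). Psmb2 and Psmb4 had log2 fold changes of 0.31 and -0.04, without a call.

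The immune counterparts of the 3 protease subunits did not pass the threshold. Psmb8, Psmb9 and Psmb10 had log2 fold changes of 0.45, 0.63 and 0.39 (adjusted p = 0.0578, 0.294 and 0.321), and Psmb8 passed it without control library 2 (0.0128), without trSrebf1 library 2 (0.0272), with limma-voom (0.0420) and with no filter (0.00244), and over all settings its adjusted p spanned 0.00244 to 0.242.

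In the base, 4 of 9 members rose and 0 fell, beside 17.2% and 13.0% of all tested genes. Psmd4 (chromosome 3, 95032694 to 95042614, minus strand), a receptor for ubiquitin chains, stood at 219.7, 193 and 202 CPM in control and 301, 304 and 329.8 in trSrebf1, a difference of 0.61 on the log2 scale (SE 0.11, adjusted p = 2.40e-04). Psmd1 (chromosome 1, 86064387 to 86139151, plus strand), a large scaffold subunit that docks other ubiquitin receptors, stood at 15.2, 19.1 and 16.5 CPM in control and 28.6, 29.7 and 26.3 in trSrebf1, a difference of 0.73 on the log2 scale (SE 0.18, adjusted p = 0.00464). An exon of Psmd1 overlaps 1 of Htr2b on the opposite strand, at 0.503 CPM in control and 1.47 in trSrebf1. Psmd1 also overlaps an exon of Gm21972 on the same strand, so how tags were divided between Psmd1 and Gm21972 is uncertain. In Psmd4 and Psmd1 the groups were far apart beside the spread within each. Psmd2, the other large scaffold subunit, rose from 24.4 ± 1.54 to 33.7 ± 4.10 CPM (SD, n = 3 each, adjusted p = 0.0448), with a pseudogene of near-identical 3' sequence. Psmc3, an ATPase, rose from 24.5 ± 3.42 to 33.7 ± 2.60 CPM (SD, n = 3 each, adjusted p = 0.0484), and overlaps an exon of Slc39a13 on the opposite strand, which fell from 1114 to 835 CPM (adjusted p = 0.0354).

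These last calls, of Psmd2 and Psmc3, lay close to the threshold, and each was lost in 11 of 15 settings. Psmd2 lost it without control library 2 (adjusted p = 0.107), control library 3 (0.153), trSrebf1 library 2 (0.106) or trSrebf1 library 3 (0.151) among others, and over all settings its adjusted p spanned 0.0314 to 0.153. Psmc3 lost it without control library 2 (0.134), control library 3 (0.200), trSrebf1 library 1 (0.142) or trSrebf1 library 3 (0.102) among others, and over all settings its adjusted p spanned 0.0221 to 0.200. The other 5 ATPases of the ring did not pass the threshold. Psmc1, Psmc4, Psmc2 and Psmc5 had log2 fold changes of 0.58, 0.55, 0.38 and 0.26, and the 95% intervals of Psmc1 and Psmc4 lay above 0 before adjustment. Psmc6 had -0.12, with overlapping groups, and 0.065 without trSrebf1 library 2.

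The lid had the highest median log2 fold change of the 6 roles, 0.54, and all of its 8 members were above 0, beside 49.3% of all tested genes. Of these members 4 rose and 0 fell, beside 17.2% and 13.0% of all tested genes. Psmd8 (chromosome 7, 29174188 to 29180701, minus strand), a structural lid subunit, had more tags than any other member. It stood at 2767, 2275 and 2311 CPM in control and 4161, 3795 and 3762 in trSrebf1, a difference of 0.67 on the log2 scale (SE 0.10, adjusted p = 6.75e-05). Psmd7 (chromosome 8, 107580381 to 107588464, minus strand), the partner that holds the lid's deubiquitinase in place, stood at 525, 503 and 477 CPM in control and 798, 822 and 835 in trSrebf1, a difference of 0.71 on the log2 scale (SE 0.10, adjusted p = 2.42e-05). Psmd8 had 29165 tags in control and 50770 in trSrebf1, and Psmd7 5974 and 10604. In both, the distance between the groups was several times the spread within them.

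Psmd11 (chromosome 11, 80428615 to 80473248, plus strand), a scaffold subunit at the lid's edge, stood at 33.3, 44.9 and 41.0 CPM in control and 79.6, 60.6 and 62.4 in trSrebf1, a difference of 0.77 on the log2 scale (SE 0.16, adjusted p = 0.00139). Its 3' end is shared with A730017L22Rik, which stood at 13.1 CPM in control and 11.9 in trSrebf1 and did not pass the threshold, so how tags were divided between these genes is uncertain. Psmd3 rose from 21.1 ± 4.69 to 30.6 ± 2.98 CPM (SD, n = 3 each, adjusted p = 0.0394), and overlaps an exon of Gm12356 on the opposite strand. Its call was lost without control library 2 (0.153), control library 3 (0.168), trSrebf1 library 1 (0.106) or trSrebf1 library 2 (0.103), with total counts, upper-quartile factors and DESeq2, and over all settings its adjusted p spanned 0.00742 to 0.168. Psmd14, the deubiquitinase itself, stood at 9.44, 10.6 and 10.8 CPM in control and 14.6, 12.2 and 18.0 in trSrebf1, without overlap, but did not pass (log2 fold change 0.54, adjusted p = 0.0958). Psmd6, Psmd12 and Psmd13 had 0.13, 0.46 and 0.25.

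Summed over their members, the roles had different ratios of trSrebf1 to control, and a few genes weigh most in these sums. The lid sum stood at 3431, 2911 and 2906 CPM in control and 5159, 4800 and 4760 in trSrebf1, 1.59 times the control mean and 1.58 times without Psmd8. The base sum was 1.46 times the control mean (1.37 without Psmd4), that of the alpha ring 1.39 times (1.33 without Psma1) and that of the beta ring 1.2 times (1.25 without Psmb1). In each of these 4 sums the 3 trSrebf1 libraries lay above the 3 control libraries, with and without the top gene. The chaperone sum was 0.937 times the control mean, with overlapping groups. Of the lid sum without Psmd8, with means of 632 CPM in control and 1000 in trSrebf1, Psmd7 alone gave 502 and 818. Of the alpha ring sum without Psma1, at 99.2 and 132 CPM, Psma7 gave 20.0 and 44.8. Sums that also leave out Psmd7 or Psma7 were not made. All these sums describe the libraries, and no test of a difference between roles was made.

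**Figure D3:**
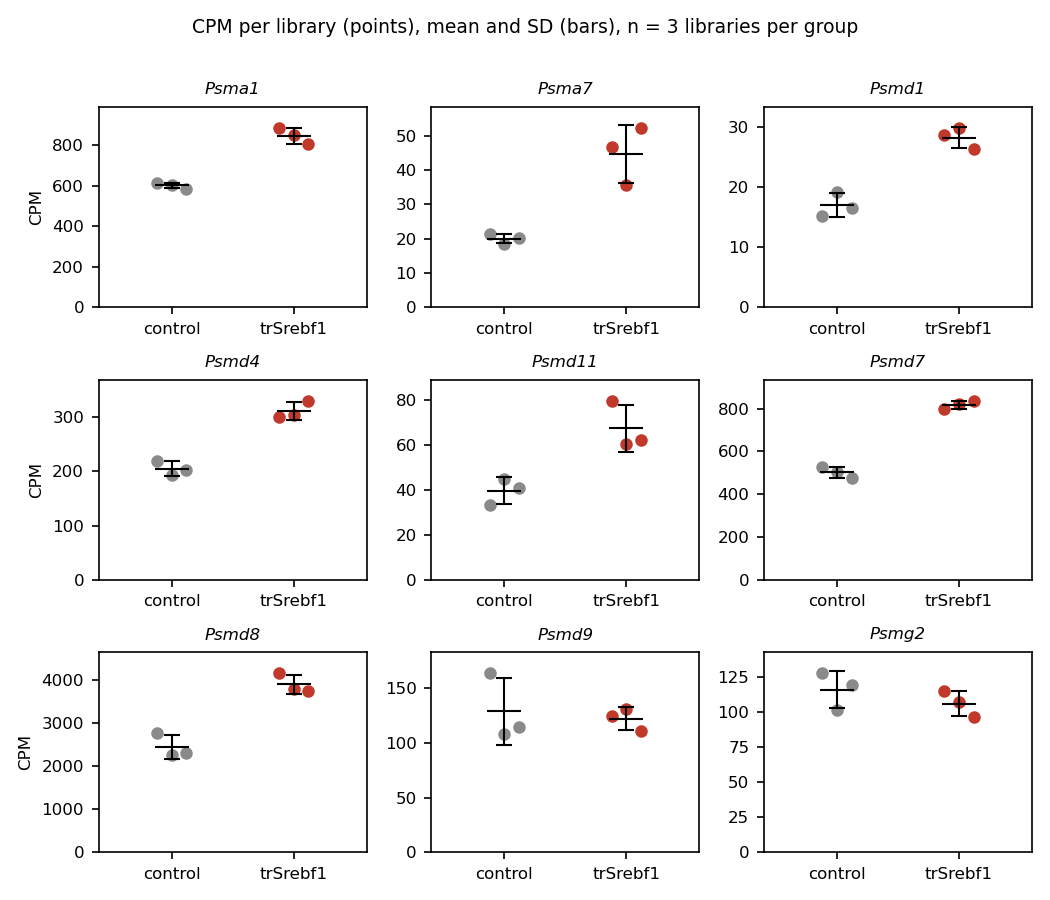
CPM of 9 proteasome genes in each library (points) with the group mean and SD (bars), control in grey and trSrebf1 in red, y axes starting at 0. The groups are apart in Psma1, Psma7, Psmd1, Psmd4, Psmd11, Psmd7 and Psmd8, and overlap in the assembly chaperones Psmd9 and Psmg2.

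Assembly chaperones, which bring subunits together and leave before the complex is finished, had 0 risen and 0 fallen members among the 4 tested. These are too few genes to set apart from the 17.2% and 13.0% of all tested genes that rose and fell. Psmd9, which helps to assemble the base, stood at 164, 108 and 115 CPM in control and 125, 131 and 111 in trSrebf1, a difference of -0.07 on the log2 scale (95% interval -0.39 to 0.24, adjusted p = 0.754), and of 0.14 without control library 1, the high library. Psmg2, which pairs with Psmg1 in building the alpha ring, stood at 127, 101 and 119 CPM in control and 114, 107 and 96.2 in trSrebf1, a difference of -0.13 on the log2 scale (95% interval -0.39 to 0.14, adjusted p = 0.495). Psmd9 had 1530 tags in control and 1583 in trSrebf1, and Psmg2 1380 and 1374. The upper ends of their intervals lie below the fitted changes of the 15 risen members, which were picked for passing the threshold. Both intervals overlap those of some risen members, such as Psmc3 (0.10 to 0.82). No test of a difference between these genes was made. Psmg1 and Psmg3 had 0.20 and 0.11 at 5.89 and 3.15 CPM, with 95% intervals of -0.46 to 0.85 and -0.80 to 1.01.

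The other 3 chaperones did not pass the filter on low counts. Psmd10, an ankyrin-repeat protein also known as gankyrin, had 30 tags in control and 30 in trSrebf1, Psmg4 had 18 and 7, and Psmd5 had 3 and 6. Psmc3ip had at least 1 tag in each control library, and its 0 tags in trSrebf1 allow up to 0.225 CPM (3 counts over the group, counting error only). The listed symbols Psma8 and Psmb11, a testis and a thymus subunit, had no row.

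Among the activators, which open the core without ATP, 1 of 5 members rose, too few to set apart from the 17.2% of all tested genes that rose. Psme1, a subunit of the cytosolic activator that interferon induces, stood at 5.51, 6.19 and 6.61 CPM in control and 11.2, 8.63 and 12.1 in trSrebf1, a difference of 0.80 on the log2 scale (SE 0.27, adjusted p = 0.0312), from 73 and 139 tags. Its 3' end has a near-identical copy elsewhere and it overlaps an exon of Emc9, so its value is uncertain. All trSrebf1 libraries were above the controls, but the call was lost without control library 1 (0.0803), control library 2 (0.0750), control library 3 (0.0595), trSrebf1 library 1 (0.0839) or trSrebf1 library 3 (0.112), with total counts and with DESeq2 among its 8 losing settings, and over all settings its adjusted p spanned 0.0210 to 0.112. Psme2, its partner in the same ring, stood at 8.65, 9.29 and 8.73 CPM in control and 11.4, 11.4 and 10.3 in trSrebf1 without overlap, and did not pass (log2 fold change 0.31, adjusted p = 0.371). Its 3' end is near-identical to that of Psme2b, at 1.99 CPM in control and 3.36 in trSrebf1. In the same libraries 8 of 12 listed interferon response genes rose and 0 fell, beside 17.2% and 13.0% of all tested genes. Their median log2 fold change was 0.88, beside -0.01 for all tested genes, and their part in the level of Psme1 was not tested.

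Psme4, a large single-chain activator, had the most tags of the activators and a difference of 0.37 on the log2 scale (95% interval -0.11 to 0.85, adjusted p = 0.254). Psme3, the nuclear activator, had -0.11 and Psmf1, which binds the core and was described as an inhibitor, -0.25 (adjusted p = 0.861 and 0.590). The groups of these 3 genes overlapped.

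Of the genes that control proteasome expression, Nfe2l1 itself rose (chromosome 11, 96817414 to 96829968, minus strand). It stood at 86.0, 113 and 105 CPM in control and 381, 399 and 388 in trSrebf1, a 3.83-fold rise (log2 fold change 1.94, SE 0.12, adjusted p = 1.17e-09), and kept its call in all 15 settings. All 3 trSrebf1 libraries lay far above the highest control library. Among 9 tested genes of this list, 3 rose and 0 fell, too few genes to set apart from the 17.2% and 13.0% of all tested genes. The median log2 fold change of the list was 0.01, beside -0.01 for all tested genes. Beside Nfe2l1 the risen genes were Mafg and Maff, small Maf proteins that pair with NRF1 on DNA. Mafg rose from 15.8 ± 2.44 to 27.3 ± 4.36 CPM and Maff from 86.6 ± 5.46 to 115.5 ± 9.45 (SD, n = 3 each, edgeR adjusted p = 0.00545 and 0.0142). Mafg overlaps an exon of Sirt7 on the same strand. The call of Maff was lost without control library 2 (0.0558), control library 3 (0.0762) or trSrebf1 library 2 (0.0614) and with upper-quartile factors, and over all settings its adjusted p spanned 0.0106 to 0.0762. Mafk, the other small Maf gene, stood at 12.1, 14.4 and 12.0 CPM in control and 10.1, 9.39 and 8.68 in trSrebf1, lower without overlap, and did not pass (log2 fold change -0.45, adjusted p = 0.168). Nfe2l2, which encodes the related factor NRF2, did not pass (13.1 ± 1.33 and 11.6 ± 3.01 CPM, SD, n = 3 each, adjusted p = 0.635). The protease Ddi2 and Ngly1, an enzyme that removes sugar chains, process NRF1 into its active form. Their genes had log2 fold changes of 0.22 and -0.57 (adjusted p = 0.749 and 0.180), and the groups of Ngly1 did not overlap.

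**Figure D4:**
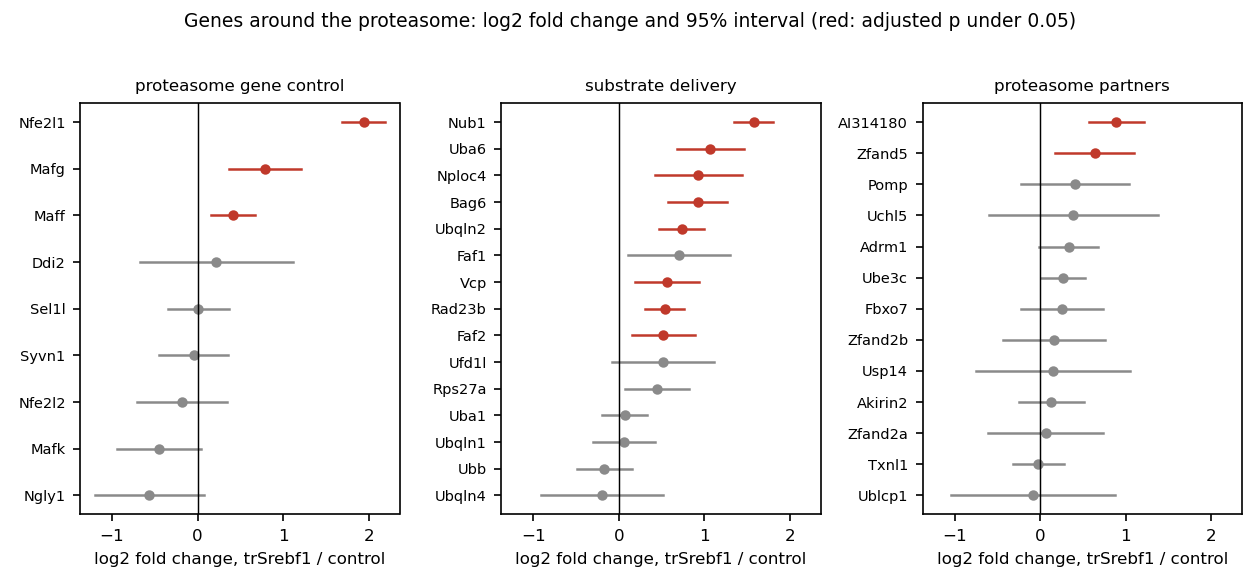
Log2 fold change of trSrebf1 over control (x axis) with its 95% interval for tested genes of the lists on control of proteasome genes, delivery of substrates and proteasome partners. Red genes passed an adjusted p of 0.05, led by Nfe2l1 at 1.94 and Nub1 at 1.57, and no gene passed it to the left of 0.

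The substrate delivery list holds shuttles and unfoldase genes, and also ubiquitin genes and the enzymes that activate ubiquitin. Of its 15 tested genes, 8 rose and 0 fell, where 17.2% of all tested genes rose and 13.0% fell. Their median log2 fold change was 0.53, beside -0.01 for all tested genes. The risen genes were 7 of 11 shuttle and unfoldase genes and 1 of 4 ubiquitin and activating enzyme genes. Nub1, which carries proteins bound to the ubiquitin-like modifiers NEDD8 and FAT10, stood at 235, 208 and 203 CPM in control and 653, 667 and 603 in trSrebf1, a difference of 1.57 on the log2 scale (SE 0.11, adjusted p = 4.17e-09). Uba6, an enzyme that activates both ubiquitin and FAT10, rose from 24.7 ± 6.04 to 51.8 ± 5.92 CPM (SD, n = 3 each, adjusted p = 2.42e-04). Uba1, Ubb and Rps27a, of the same part of the list, had log2 fold changes of 0.069, -0.17 and 0.45, without a call. The shuttle genes Rad23b and Ubqln2 rose by 0.53 (SE 0.11) and 0.73 (SE 0.12) on the log2 scale, whereas Ubqln1 and Ubqln4, relatives of Ubqln2, had 0.055 and -0.20, without a call. Bag6, a chaperone for stray membrane proteins, and Nploc4, a cofactor of the unfoldase Vcp, had log2 fold changes of 0.92 (SE 0.16) and 0.93 (SE 0.24).

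Vcp itself rose from 25.0 ± 5.06 to 36.9 ± 2.51 CPM (SD, n = 3 each, adjusted p = 0.0216), and lost its call without control library 3 (0.131) or trSrebf1 library 1 (0.0805) and with total counts (0.0531), and over all settings its adjusted p spanned 0.0134 to 0.131. Its membrane cofactor Faf2 rose by 0.52 (SE 0.17, adjusted p = 0.0306), a call lost without control library 1 (0.105), control library 3 (0.0785), trSrebf1 library 1 (0.103) or trSrebf1 library 2 (0.0778), with total counts and upper-quartile factors, and over all settings its adjusted p spanned 0.0218 to 0.105.

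Among proteasome partners outside the symbol rule, 2 of 13 tested genes rose and 0 fell, a share near the 17.2% of all tested genes that rose. AI314180, also called Ecpas, which encodes an adaptor that holds the core to its cap, stood at 32.8, 35.9 and 27.6 CPM in control and 59.8, 58.6 and 59.8 in trSrebf1, a difference of 0.89 on the log2 scale (SE 0.15, adjusted p = 1.99e-04). Zfand5, which binds the proteasome and raises its activity, stood at 73.4, 63.2 and 89.2 CPM in control and 99.2, 161 and 91.8 in trSrebf1 (log2 fold change 0.64, adjusted p = 0.0419). The high value came from trSrebf1 library 2, and without it the log2 fold change was 0.35 (0.118). The call was also lost without control library 1 (0.168) or control library 2 (0.139), with total counts and upper-quartile factors among its 6 losing settings, and over all settings its adjusted p spanned 3.33e-05 to 0.168. Adrm1, a ubiquitin receptor of the base, and Pomp, which matures the beta ring, had log2 fold changes of 0.34 and 0.41 without overlap of the groups and did not pass (adjusted p = 0.139 and 0.341). The 3' end of Adrm1 is near-identical to sequence of Gm9774. The deubiquitinases Usp14 and Uchl5, at under 4 CPM, had 0.15 and 0.39 without a call.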

How the data were processed

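The 6 count tables, 1 per library (3 control, 3 trSrebf1), were deposited by the authors as whole-number counts per gene symbol, with the same 19865 symbols. Bowtie2 2.2.5 and mm10 are named per the submitters' processing notes, in roles that are not described. How tags were counted, on which annotation and with which strand setting is not given in the sources used here. R 4.3.3 with edgeR 4.0.16 gave the tests: genes kept by filterByExpr (at least 10 counts, total of 15), TMM factors, then a robust quasi-likelihood fit (glmQLFit, glmQLFTest) on group alone, two-sided, with Benjamini-Hochberg adjustment over 10194 genes and a prior count of 0.125. The standard error is the log2 fold change over the square root of F, and 95% intervals use the moderated degrees of freedom. The fit was checked on simulated data. DESeq2 1.42.0 and limma 3.58.1 (voom) were alternatives. No pair of libraries looked like repeat deposits of 1 library: chi-square over its degrees of freedom was 4.52 to 8.13 for each pair in a group (genes with 10 or more counts). Coordinates are from GENCODE M21 (GRCm38); near-identical 3' ends are matches of 50 bases or more at 95% identity within the last 300 bases of transcripts. The labels name no molecular identifiers, so counts may not be independent molecules. Members and lists were chosen with earlier results of these data known. Some genes of the substrate delivery list are not reported here and stay out of its counts. Named genes are every member and list gene past the threshold, the top, lowest and highest members of each role, all members that did not pass the filter, Pomp, Adrm1, Nfe2l1, Nfe2l2, the immune subunits and Srebf1; the other members and list genes named were added after their values were seen.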

Additional observations from a re-analysis of the deposited data

How the results depend on the processing

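The count of 15 risen members was 8 with total counts, 9 with DESeq2, and 8 to 12 with 1 library left out; it was 10 with upper-quartile factors, 12 without Ctsd and 13 with no filter on low counts. The count of 0 fallen members became 1 with upper-quartile factors and 0 to 2 with 1 library left out. The median log2 fold change of members, 0.38, was 0.30 with upper-quartile factors, where the median of all tested genes was -0.10, and 0.31 to 0.44 with 1 library left out. The lists around the proteasome had 0 fallen genes and 10 to 14 risen genes over all settings. Of 13 risen list genes 9 kept their call in all 15 settings. Signs turned for genes without a call: with 1 library left out, Psmd9 ranged from -0.19 to 0.14, Psmb5 from -1.29 to 0.10, Psmc6 from -0.30 to 0.065 and Nfe2l2 from -0.32 to 0.021, turning without control library 1, control library 2, trSrebf1 library 2 and trSrebf1 library 3. With the replicate number as a block 11 members rose and 0 fell. In that setting Psmb7 (adjusted p = 0.0618), Psmc3 (0.0621), Psmd2 (0.0730), Psme1 (0.0504) and, of the lists, Zfand5 (0.0923) did not pass. Same-numbered libraries correlated at 0.00525, -0.112 and -0.0538 in their deviations from the group means, and differently numbered ones at -0.0666 to 0.109. With 3 libraries per group these correlations cannot decide whether the numbers pair libraries, which the sources used here do not state. Of all called genes, 56.9% were higher in the main fit, 50.3% with total counts and 48.5% with upper-quartile factors. The member and list counts of each setting were not set beside the share of all tested genes called in it. The cause of the shifts between settings was not tested. Members under 20 CPM, with as few as 68 tags in all, limit what could be called.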
